A study of Mus musculus with 4 samples.

Results

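The lens is wrapped in a thick basement membrane, the capsule, and the genes described here encode its main structural components other than the laminins: *Col4a1*, *Col4a2*, *Col4a3*, *Col4a4*, *Col18a1*, *Nid1*, *Nid2*, *Hspg2*, *Agrn* and *Sparc*. They were taken by gene name from an RNA-seq expression table of mouse lens, in which they are 10 of 56748 genes, and each name matched 1 row. All 10 passed the filter on low values, a mean of at least 0.1 FPKM (fragments scaled to gene length and to the size of the library). At that threshold 15997 genes were tested.

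Lenses came from mice of 10 to 12 days of age on the FVB/N strain background, and each library was made from lenses pooled over several mice. The 2 mutant libraries are labelled Fsp1-cre;Pdgfrb+/D849V, carrying a Cre transgene under the *Fsp1* promoter and 1 allele of the PDGF receptor beta with the activating D849V change, and the 2 control libraries are labelled Fsp1-cre;Pdgfrb+/+. The study's methods describe the control pools as a mixture of Fsp1-cre;Pdgfrb+/+ mice and mice that had the D849V allele without Cre or neither, and describe the line as also bearing a Cre-dependent tdTomato reporter. Cre and the mutant receptor may also be active in tissues other than lens. Nothing in the labels says how the mice were divided among pools, so p-values measure only the spread between these libraries, which may in part be technical. The study reports robust Cre reporter activity in lens epithelium at an age later than that of these lenses. It treats expression of the mutant receptor as an assumption, and whether that receptor was active in these lenses was not tested. The comparison asks whether mutant and control lenses differ in gene expression before the lens becomes opaque.

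In a basement membrane, collagen IV trimers and laminins form separate networks, which nidogens and the heparan sulfate proteoglycan perlecan bridge. Collagen IV chains assemble in fixed combinations, chiefly of the alpha 1 and alpha 2 chains and, in some membranes, of the alpha 3, alpha 4 and alpha 5 chains or of alpha 5 and alpha 6. The anterior lens epithelium and the fibre cells secrete the capsule throughout life, and loss of function of collagen IV chains is known to damage the lens and its capsule in mice and people.

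The 4 libraries were of similar depth, with 18561682 to 18878768 reads assigned to genes, and crystallins took 58.6% to 62.9% of them. Markers of lens epithelium (*Foxe3*, *Pax6*, *Cdh1*, *Gja1* and *Slc2a1*) were above 0 in every library and summed to 168 and 192 FPKM in the mutant libraries and 186 and 190.5 in the controls. Of 10 fibre markers 9 were above 0 in every library, and *Lim2* was listed at 0 in all 4. By these markers the samples were lens. All 12 endothelial markers were also above 0 in every library. The libraries also differed in *Xist*, the RNA of the inactive X chromosome of female cells, with 7.62 and 13.1 FPKM in mutant replicates 1 and 2 and 15.6 and 5.56 FPKM in control replicates 1 and 2. Members are therefore also given as a ratio of mutant to control within pairs of libraries of like *Xist*. The pair of low *Xist* (mutant replicate 1 over control replicate 2) comes before that of high *Xist* (mutant replicate 2 over control replicate 1). Nothing in the labels pairs these libraries, and the pairs were formed by *Xist* alone.

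The members spanned a wide range of levels. Mean FPKM over the 4 libraries placed *Sparc* and *Col4a1* at ranks 80 and 82 among the tested genes, *Col4a2* at rank 100 and *Nid1* at rank 177. *Hspg2* stood at rank 504, *Col4a4* at 1029 and *Col4a3* at 1229, followed by *Col18a1* at 2961, *Agrn* at 4494 and *Nid2* at 11255. Of the neighbouring pairs in this order, 3 had overlapping ranges: *Sparc* and *Col4a1*, whose order held in only 2 of the 4 libraries, *Col4a1* and *Col4a2*, and *Col4a4* and *Col4a3*, whose order held in all 4. The remaining neighbours did not overlap, from a 1.70-fold step between *Col18a1* and *Agrn* to a 6.76-fold step between *Agrn* and *Nid2*. Between 34 and 41966 reads lay behind each member's value in a library.

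**Figure D1:**
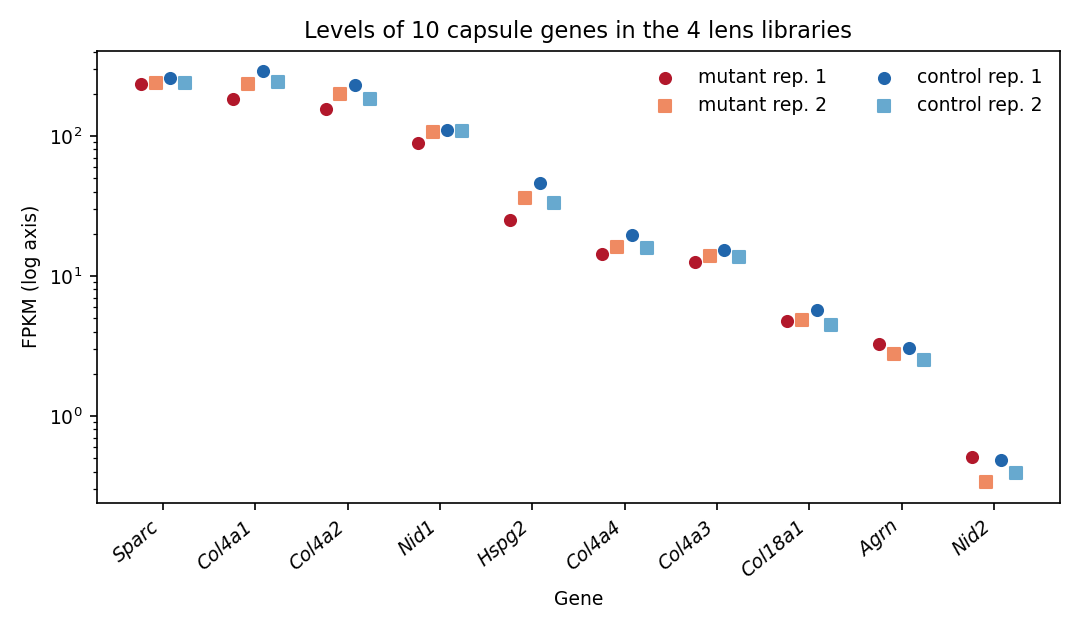
FPKM of the 10 capsule genes on a log axis, with 1 point for each of the 2 mutant and 2 control libraries. The genes run from *Sparc* and *Col4a1* at over 180 FPKM down to *Nid2* at under 0.6, and mutant and control points lie close together within most genes.

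No member passed the test between mutant and control lenses. In limma on log2(FPKM + 0.1), 0 of 10 had an adjusted p under 0.05 and 0 had an unadjusted p under 0.05, where 0.0375% of all tested genes passed the first threshold and 2.92% were lower and 3.39% higher at the second, or 6.31% in all. With voom on the reads recovered from the FPKM, 2 members, *Col4a1* and *Hspg2*, had an unadjusted p under 0.05, where 4.0% of all genes were lower and 3.43% higher at that threshold, and neither passed after adjustment, as 0.0875% of genes did. With *Xist* side as a covariate in limma, 3 members, *Col4a1*, *Col4a2* and *Hspg2*, were lower at an unadjusted p under 0.05. Of all genes 3.16% were lower and 3.71% higher at that threshold. None of the members passed after adjustment, as 0.00625% of genes did. That covariate leaves little spread among so few libraries to estimate error from. It absorbs the part of the gap within each group that follows *Xist* side, so its p-values rest on that split. In direction, 9 of 10 were lower in mutant lenses, where 49.3% of all genes were, and the members' median log2 fold change was -0.15 against 0.0041 for all genes. In bulk lens RNA, fewer cells of a type and less RNA per cell cannot be told apart.

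The main network chains come from *Col4a1* and *Col4a2*, which encode alpha 1 and alpha 2 and lie head to head on chromosome 8 (mm39), sharing 22 bases at their starts. *Col4a1* (ENSMUSG00000031502, chr8:11248423-11362826, minus strand) had 183 and 233 FPKM in the mutant libraries and 289 and 242 in the controls. Both mutant libraries were below both controls, which was true of 18.3% of all tested genes. The means were 208 ± 35.3 and 265 ± 33.5 FPKM (SD, n = 2 each), a log2 fold change of -0.36 (SE 0.16, 95% interval -0.77 to 0.053) with an adjusted p of 0.809 in limma. Its fold was similar in both *Xist* pairs, at 0.756 and 0.805, and with *Xist* side as a covariate in limma the unadjusted p was 0.00846 and the adjusted p 0.627. Leaving out 1 library moved its log2 fold change between -0.53 and -0.18, with -0.18 without mutant replicate 1 and -0.23 without control replicate 1.

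*Col4a2* (ENSMUSG00000031503, chr8:11362805-11499287, plus strand) followed at 155 and 199.7 FPKM in mutant lenses and 233 and 184 in controls. Its groups overlapped, since mutant replicate 2 was above control replicate 2. The log2 fold change was -0.23 (SE 0.18, 95% interval -0.69 to 0.22) with a limma adjusted p of 0.811. It ranged from -0.42 to -0.050 on leaving out 1 library, with -0.050 without mutant replicate 1 and -0.062 without control replicate 1. Within the *Xist* pairs *Col4a2* stood at 0.844 and 0.859 of the control, and the covariate fit gave an unadjusted limma p of 0.0326 and an adjusted p of 0.701. The balance of these partner chains differed slightly between groups: *Col4a1* was 1.18 and 1.17 times *Col4a2* in mutant libraries and 1.24 and 1.32 times in controls. These ratios did not overlap, but with 2 libraries a group the exact permutation test cannot give a two-sided p below 0.333.

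*Col4a3* and *Col4a4*, for the alpha 3 and alpha 4 chains of the more restricted network, form a second head-to-head pair on chromosome 1, with 71 bases between their starts. *Col4a4* (ENSMUSG00000067158, chr1:82426144-82564570, minus strand) had 14.3 and 15.96 FPKM in mutant lenses and 19.6 and 15.9 in controls. *Col4a3* (ENSMUSG00000079465, chr1:82564642-82699780, plus strand) had 12.6 and 13.8 FPKM in mutant lenses and 15.4 and 13.6 in controls. For both genes control replicate 1 was the highest library and the groups overlapped. Their log2 fold changes were -0.22 (SE 0.14, limma adjusted p 0.811) and -0.13 (SE 0.11, limma adjusted p 0.811). Without control replicate 1 they were -0.072 and -0.044, and over all libraries left out in turn *Col4a4* ranged down to -0.37 and *Col4a3* to -0.22. In the *Xist* pairs *Col4a4* stood at 0.8997 and 0.815 of its control and *Col4a3* at 0.928 and 0.894.

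The X-linked chains *Col4a5* and *Col4a6*, which share networks with these chains but are not among the 10, were measured alongside. *Col4a5* had 18.6 and 23.1 FPKM in mutant libraries and 28.6 and 24.6 in controls, a log2 fold change of -0.35 (SE 0.14, limma adjusted p 0.801). For *Col4a6* the values were 9.84 and 14.1 in mutant libraries and 16.5 and 13.5 in controls, a log2 fold change of -0.34 (SE 0.20, limma adjusted p 0.811). Leaving out 1 library gave -0.51 to -0.20 for *Col4a5* and -0.60 to -0.079 for *Col4a6*, with the value nearest 0 without mutant replicate 1 for both. In the *Xist* pairs *Col4a5* stood at 0.757 and 0.808 of its control and *Col4a6* at 0.729 and 0.856. Unadjusted p-values were 0.0131 and 0.0301 with *Xist* side as a covariate in limma, and 0.00493 and 0.0185 in voom. The adjusted values were 0.671 and 0.697 in that limma fit and 0.401 and 0.567 in voom. Thus all 6 collagen IV chains had lower means in mutant lenses, and none passed after adjustment.

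Their summed level was 393 and 499 FPKM in mutant lenses and 602 and 493 in controls. The mutant mean was 0.815 of the control mean, and the libraries of the groups overlapped. The makeup of that sum varied little, with alpha 1 and alpha 2 together at 85.9% and 86.6% in mutant libraries and 86.7% and 86.3% in controls. *Col4a3* and *Col4a4* each contributed 2.56% to 3.63%.

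**Figure D2:**
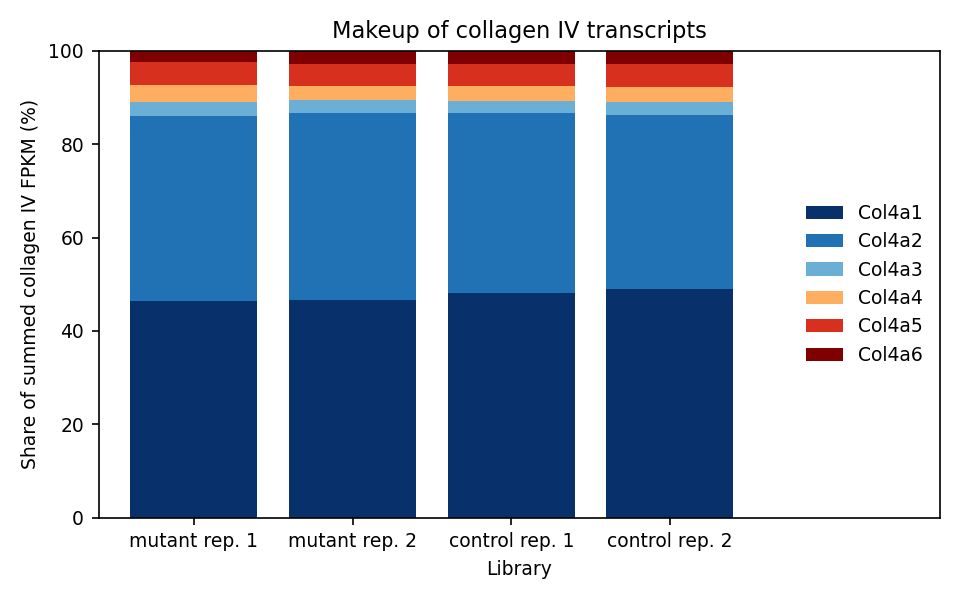
Share of the summed collagen IV FPKM taken by each of the 6 chains in each library, as stacked bars in percent. *Col4a1* and *Col4a2* together fill 85.9% to 86.7% of every bar, so the bars look nearly alike.

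Nidogens link the collagen IV network to laminin. *Nid1* (ENSMUSG00000005397, chr13:13612136-13686854, plus strand) had 88.2 and 107 FPKM in mutant lenses and 109.5 and 108 in controls. Both mutant libraries lay below both controls, mutant replicate 2 only just, and mutant replicate 1 stood furthest from the rest. The log2 fold change was -0.16 (SE 0.12, limma adjusted p 0.811), with ratios of 0.819 and 0.974 in the *Xist* pairs. That value rested on mutant replicate 1: it was -0.026 without that library and -0.30 without mutant replicate 2. *Nid2* (ENSMUSG00000021806, chr14:19801333-19861855, plus strand), the related second nidogen, was barely expressed, at 0.510 and 0.336 FPKM in mutant lenses and 0.487 and 0.388 in controls. Those values rest on 34 to 49 reads, its end overlaps *Rtraf* on the opposite strand, and *Rtraf* holds up to 1151 reads, so its reads are uncertain where strand was not used. Its log2 fold change was -0.05 (SE 0.29, limma adjusted p 0.980) with ratios of 1.31 and 0.689 in the *Xist* pairs, so its direction differed between them, and it turned to 0.19 without mutant replicate 2 and to 0.079 without control replicate 1. *Nid1* was 173 to 318 times *Nid2* across the libraries.

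The heparan sulfate proteoglycans of the capsule are perlecan, agrin and collagen XVIII. RefSeq (GRCm38.p6) gives windows at the starts of 8 of the 10 members, and those of *Col4a3* and *Nid2* are not among them. The first 198 bases of the *Hspg2* window and of a *Col18a1* window lie outside annotated transcripts. They are printed 5′ to 3′ on the gene's strand. *Hspg2* and *Col18a1* are the members with such a stretch, 1 of the higher and 1 of the lower proteoglycan genes by level. *Col18a1* has another window, which starts within an annotated gene, holds 0 GC boxes and is not printed. Capitals mark GC boxes, GGGCGG or its reverse complement CCGCCC, and the coordinates are of that build, not of mm39.
Hspg2 chr4:137468553-137468750: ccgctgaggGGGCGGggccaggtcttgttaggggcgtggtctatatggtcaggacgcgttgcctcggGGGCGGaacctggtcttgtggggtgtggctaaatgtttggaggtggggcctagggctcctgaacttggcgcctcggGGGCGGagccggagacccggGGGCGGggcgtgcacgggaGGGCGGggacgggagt
Col18a1 chr10:77166583-77166780: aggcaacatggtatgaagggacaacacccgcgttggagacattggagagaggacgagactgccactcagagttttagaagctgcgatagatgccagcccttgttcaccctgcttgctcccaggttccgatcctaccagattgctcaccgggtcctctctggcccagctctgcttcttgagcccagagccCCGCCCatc
*Hspg2* is on the plus strand and *Col18a1* on the minus strand. The *Hspg2* stretch holds 5 GC boxes and is 70.2% G or C, and that of *Col18a1* holds 1 and is 57.6% G or C. Of the same stretch in all 32851 promoter windows of the table, within transcripts or not, 24.3% hold at least 1 box and 0.703% hold 5 or more. *Agrn* has windows at 2 starts, both within annotated genes and not printed, of which 1 holds 10 boxes and the other 0. A match is a description of the letters and not evidence of a bound factor.

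*Hspg2* (ENSMUSG00000028763, chr4:137196080-137297941 in mm39, plus strand), the perlecan core protein, had 24.9 and 36.2 FPKM in mutant lenses and 45.7 and 33.3 in controls. It had the widest spread of the 10 members relative to its level, and its groups overlapped because mutant replicate 2 exceeded control replicate 2. The means were 30.6 ± 7.95 and 39.5 ± 8.74 FPKM (SD, n = 2 each), with a log2 fold change of -0.38 (SE 0.23, 95% interval -0.97 to 0.22) and a limma adjusted p of 0.811. Ratios in the *Xist* pairs were 0.749 and 0.792, and the covariate fit in limma gave an unadjusted p of 0.00892 and an adjusted p of 0.634. Leaving out 1 library moved the log2 fold change between -0.64 and -0.11, with -0.11 without mutant replicate 1 and -0.15 without control replicate 1. *Col4a1* was 7.33 and 6.43 times *Hspg2* in mutant libraries and 6.33 and 7.26 times in controls, and these ratios overlapped between groups.

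*Agrn* (ENSMUSG00000041936, chr4:156249747-156281945, minus strand), the agrin core protein, was the 1 member higher in mutant lenses, at 3.26 and 2.77 FPKM against 3.07 and 2.52. The groups overlapped, the log2 fold change was 0.11 (SE 0.16, limma adjusted p 0.897), and the *Xist* pairs disagreed in direction, at 1.29 and 0.902. Its direction turned without mutant replicate 1 (-0.0051) and without control replicate 2 (-0.032). *Col18a1* (ENSMUSG00000001435, chr10:76888012-77002382, minus strand), whose collagen XVIII carries the endostatin domain at its end, had 4.77 and 4.82 FPKM in mutant lenses and 5.74 and 4.46 in controls. Both mutant values lay between the 2 controls, and the log2 fold change was -0.08 (SE 0.15, limma adjusted p 0.926), with ratios of 1.07 and 0.840 in the *Xist* pairs and a value of 0.10 without control replicate 1. *Col18a1* overlaps *Slc19a1* over 8825 bases on the opposite strand, a gene with at most 80 reads.

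*Sparc* (ENSMUSG00000018593, chr11:55285326-55314009, minus strand), a secreted collagen-binding glycoprotein needed for a normal capsule, had the highest mean over the 4 libraries and was the steadiest member. In both controls it was below *Col4a1*. It had 234 and 238 FPKM in mutant lenses and 260 and 237.8 in controls. The log2 fold change was -0.07 (SE 0.096, 95% interval -0.32 to 0.17, limma adjusted p 0.881), with *Xist*-pair ratios of 0.985 and 0.917, and it was -0.0088 without control replicate 1. *Col4a1* was 0.781 and 0.976 times *Sparc* in mutant libraries and 1.11 and 1.02 times in controls, ratios that did not overlap. *Sparc* was found steady in these same values, so the ratio adds no separate evidence on *Col4a1*. The exact permutation test on it cannot give a two-sided p below 0.333.

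**Figure D3:**
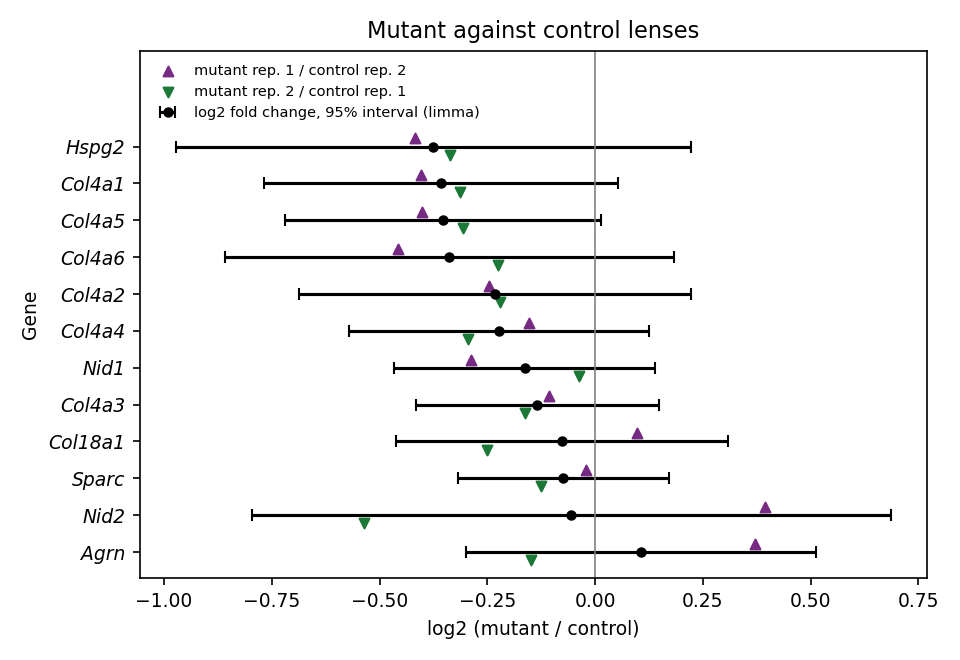
Log2 fold change of mutant over control for the 10 capsule genes and *Col4a5* and *Col4a6* in limma (points, with 95% intervals as bars), and the ratios within the low-*Xist* (upward triangles) and high-*Xist* (downward triangles) pairs. Every interval crosses 0, and the estimate lies above 0 for *Agrn* alone.

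Single libraries stood apart in the members' values. For 7 of 10, mutant replicate 1 was the lowest library and control replicate 1 the highest, an order shared by 11.4% of all tested genes. Control replicate 1 was above control replicate 2 for 10 of 10 members, and mutant replicate 2 above mutant replicate 1 for 8. The shares of all tested genes with these orders were not counted, so neither count is read as particular to the members. Within the *Xist* pairs, 7 of 10 were lower in the mutant library of both, against 26.7% of all genes. For 3 members the means were further apart than the larger of their SDs, a count that was not taken over all tested genes.

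**Figure D4:**
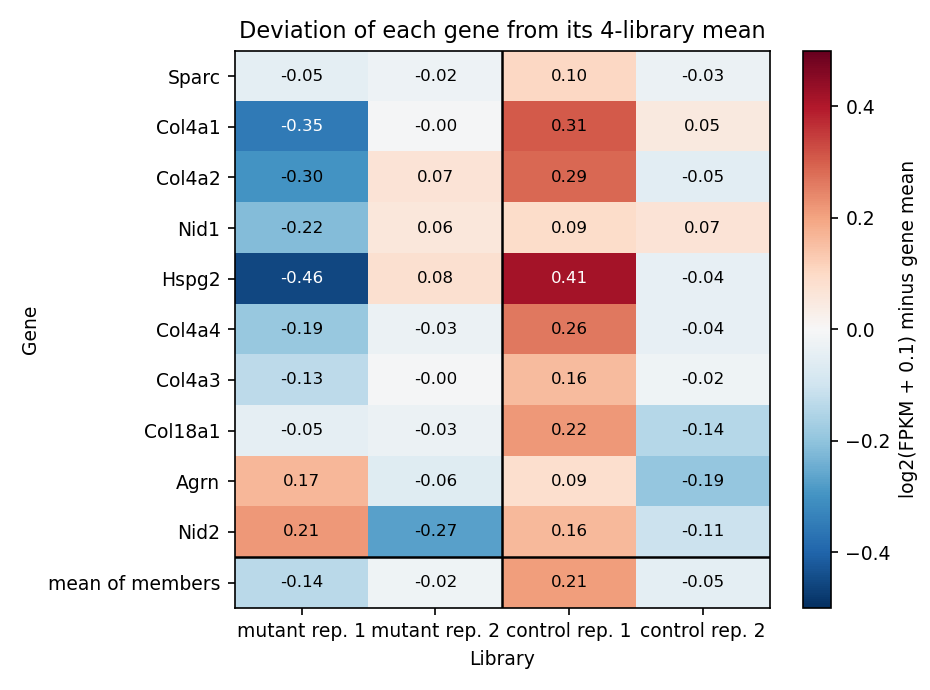
Deviation of each member from its own mean over the 4 libraries, in log2(FPKM + 0.1), as a heat map with the values printed and the mean of the 10 members in the last row. Mutant replicate 1 has the lowest mean deviation, -0.14, and control replicate 1 the highest, 0.21, with the other libraries near 0.

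Summed over the 10 genes, the level was 721 and 852 FPKM in mutant lenses and 981 and 841 in controls, so that mutant replicate 2 was above control replicate 2. The means were 786 ± 92.5 and 911 ± 99.2 FPKM (SD, n = 2 each), a ratio of 0.863. Leaving out 1 library moved this ratio from 0.791 to 0.935. As a share of the reads outside the crystallins, the members took 1.17% and 1.42% in mutant libraries and 1.67% and 1.42% in controls.

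Most members are long genes, and the levels of long genes as a class stood apart in mutant replicate 1. With genes of a mean of at least 1 FPKM divided by length into 5 classes of equal size, 7 of the 10 had lengths of the longest, 6926 to 41619 bases. The median deviation from the gene mean in that class was -0.0565 (log2) in mutant replicate 1, and 0.0279 and 0.0308 in control replicates 1 and 2. Of the 1676 genes in the class 62.1% were lower in mutant lenses, 29.9% had both mutant libraries below both controls, and 20.7% had mutant replicate 1 lowest and control replicate 1 highest. With each gene centred on genes of like length, an alternative chosen after the values were seen, the log2 fold change was -0.32 for *Col4a1*, -0.28 for *Hspg2*, -0.20 for *Col4a2*, -0.17 for *Col4a4* and -0.13 for *Nid1*. *Col4a3* moved from -0.13 to -0.080, *Col18a1* from -0.08 to -0.039, *Nid2* from -0.05 to -0.028 and *Agrn* from 0.11 to 0.16, while *Sparc* stood at -0.078. The part of length was otherwise not tested.

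**Figure D5:**
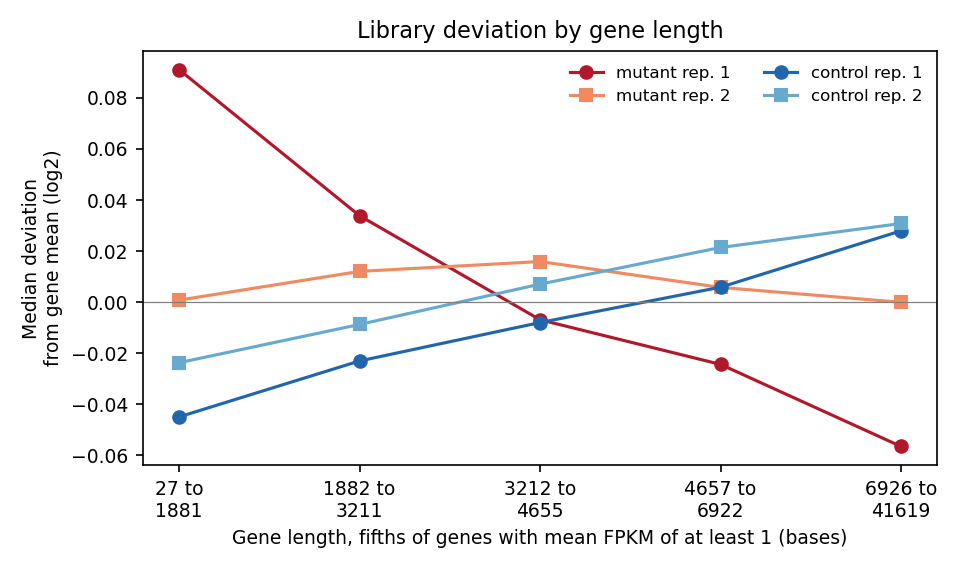
Median deviation from the gene mean, in log2(FPKM + 0.1), for 5 equal classes of gene length (bases) in each library, among genes with a mean of at least 1 FPKM. The shortest class stands at 0.0910 and the longest at -0.0565 in mutant replicate 1, the widest spread of the 4 libraries.

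Other genes of the basement membrane were counted by list. Of the laminin chains, which form the other network of the capsule, 9 of 11 were tested and 8 had lower means in the mutant group, and the median log2 fold change over the list was -0.19. *Lama2*, the laminin alpha 2 chain, had 0.784 and 0.751 FPKM in mutant lenses and 1.48 and 1.72 in controls, a log2 fold change of -0.97 (SE 0.16, limma adjusted p 0.362, voom adjusted p 8.9e-04). *Lamc1*, the gamma 1 chain, followed at -0.54 (SE 0.19, unadjusted limma p 0.0348) and *Lama1* at -0.26 (SE 0.16). Without mutant replicate 1 these stood at -0.35 and -0.15, and without control replicate 1 at -0.37 and -0.11, whereas *Lama2* stayed between -1.07 and -0.87 with any library left out. *Lama2* was the only gene of these lists that passed adjustment, and it passed in voom and not in limma.

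The enzymes and chaperones of collagen IV were evenly divided, with 9 of 19 lower and a median log2 fold change of 0.0071. *Pxdn*, peroxidasin, which makes the sulfilimine crosslinks of collagen IV, had 15.3 and 17.7 FPKM in mutant lenses and 22.2 and 17.7 in controls, a log2 fold change of -0.26 (SE 0.15). *P3h3*, of the prolyl 3-hydroxylase family, was at 0.58 (SE 0.30) and *Ppib*, the endoplasmic reticulum prolyl isomerase cyclophilin B, at 0.23 (SE 0.14). Single libraries carried much of these values: *Pxdn* was -0.10 and *Ppib* 0.058 without control replicate 1, and *P3h3* was 0.20 without mutant replicate 2. None of the 19 had an unadjusted p under 0.05 in limma. In voom *Pxdn* was lower (unadjusted p 0.0295) and *P3h3* higher (unadjusted p 0.0389), and neither passed after adjustment. Of all genes 4.0% were lower and 3.43% higher at that threshold in voom.

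Among genes of heparan sulfate synthesis, 12 of 20 tested were lower, with a median of -0.05 on the log2 scale and none at an unadjusted limma p under 0.05. In voom 2 of the 20 were lower and 0 higher at that threshold, against 4.0% and 3.43% of all genes. The 3 genes of this list with the smallest limma p were *Hs6st2* at -0.71 (SE 0.30), *B3galt6* at -0.52 (SE 0.29) and *B4galt7* at 0.44 (SE 0.27), which add sulfate or build the linker of the chain. *B3galt6* was -0.16 without mutant replicate 1 and *B4galt7* 0.18 without mutant replicate 2, while *Hs6st2* ranged from -0.80 to -0.63 on leaving out 1 library. With pseudocounts of 0.01 and 1 *Hs6st2* was -0.93 and -0.22, so its size depended on that setting. *B3galt6* rested on 30 to 70 reads in a library and *B4galt7* on 33 to 72. The minor basement membrane genes had 10 of 13 lower and a median of -0.08, led by *Fbln2* at 0.35 (SE 0.19), *Col15a1* at -0.73 (SE 0.43) and *Ntn1* at 0.41 (SE 0.26). *Col15a1* was -0.16 without mutant replicate 2 and -1.30 without mutant replicate 1, and *Ntn1* was 0.22 without mutant replicate 1. With pseudocounts of 0.01 and 1 *Col15a1* was -0.92 and -0.25. In voom 1 of the 13, *Col15a1*, was lower at an unadjusted p under 0.05 (0.0126), against 4.0% of all genes.

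Of 18 tested receptors and membrane-bound proteoglycans, 14 were lower, with a median log2 fold change of -0.14. *Itga6*, the laminin-binding integrin alpha 6 subunit, had 7.67 and 7.44 FPKM in mutant lenses and 9.30 and 9.97 in controls, a log2 fold change of -0.35 (SE 0.098) with an unadjusted p of 0.0160 and an adjusted p of 0.706 in limma. *Gpc6* at -0.62 (SE 0.24) and *Sdc3* at -0.29 (SE 0.13) came next, with *Sdc3* at -0.17 without control replicate 1. At an unadjusted p under 0.05, 1 of the 18 was lower in limma and 4 in voom, with 0 higher in either. Of all genes 2.92% were lower at that threshold in limma and 4.0% in voom.

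Markers of other cell types were read beside the members. The summed level of the 12 endothelial markers was 12.5 and 9.22 FPKM in mutant libraries and 14.2 and 11.1 in controls, with 11 of 12 lower and a median log2 fold change of -0.45. Pericyte markers summed to 18.4 and 15.7 FPKM in mutant libraries and 16.9 and 17.7 in controls, and *Pdgfrb* itself stood at 2.36 and 2.16 against 2.25 and 1.79. The 8 macrophage markers, of which 3 passed the filter on low values, summed to 1.82 and 1.88 FPKM in mutant lenses and 0.788 and 0.536 in controls. Fibroblast markers summed to at most 1.79 FPKM in any library, with *Lum* listed at 0 in all 4. The part of these cells in the members' values was not tested.

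By pattern over the 4 libraries, the 5 genes of at least 10 FPKM closest to the mean profile of the members were *Clstn1*, *Gaa*, *Polr2m*, *Htra1* and *Pdcd4*, of 1662 candidates. Their Euclidean distances ran from 0.0366 to 0.0667, where the median candidate was at 0.387. These genes were picked as the nearest, so their small distances were fixed by the rule. The mean profile does not describe each member. In mutant replicate 1 it stood at -0.14, while single members ran from -0.46 for *Hspg2* to 0.21 for *Nid2*. *Htra1*, a secreted serine protease, had 44.7 and 47.3 FPKM in mutant libraries and 56.2 and 49.0 in controls, with control replicate 1 the highest. With 4 libraries, such likeness rests on very few points.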

How the data were processed

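RNA-seq of pooled mouse lenses gave 4 libraries, 2 mutant and 2 control, grouped by their genotype labels. The authors deposited FPKM for each library, made by alignment in HISAT2 and gene counts from featureCounts, along with gene length, on mm39 per the submitters' processing notes; whether counting used strand is not given in the sources used here. From the deposited FPKM and gene length, whole reads were recovered for 100% of values (tolerance 0.01 read). No column of per-sample values was left unmapped. Genes averaging 0.1 FPKM or more entered limma 3.58.1 (R 4.3.3) on log2(FPKM + 0.1), with a trend in the variance and Benjamini-Hochberg adjustment over all 15997 genes, so fold changes of low genes are understated. Ratios used an exact permutation test. Code was tested on simulated data. Alternatives were other pseudocounts, filters and scalings, voom, a replicate block, an *Xist* covariate, length centring and leaving out each library. Named were all members, *Col4a5*, *Col4a6*, the 3 genes of smallest p per list, and the 5 of most alike profile; marker genes were read by list. Members and lists were chosen with earlier results of these data known.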

Additional observations from a re-analysis of the deposited data

How the results depend on the processing

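Over 16 alternatives, 154 of 159 values of a member's log2 fold change kept their direction. The 5 that turned all came from leaving out 1 library. Filters, the variance trend, the replicate block and the *Xist* covariate cannot move a fold change here, so their agreement was fixed in advance. Leaving out 1 library gave ranges of -0.25 to 0.10 for *Col18a1* (0.10 without control replicate 1), -0.30 to 0.19 for *Nid2* (0.19 without mutant replicate 2, 0.079 without control replicate 1) and -0.032 to 0.25 for *Agrn* (-0.0051 without mutant replicate 1, -0.032 without control replicate 2). The smallest adjusted p of a member in any alternative was 0.411, in voom. Genes called over the whole table numbered 6, and 2 with a pseudocount of 0.01, 2 with 1, 2 at a mean FPKM of at least 1, 2 without the variance trend, 1 without a filter, 1 with the *Xist* covariate, 14 with voom, 3 with the replicate block and 0 to 0 on leaving out a library, where fewer samples remain and a lone library is assumed to vary like the other group. Otherwise the cause was not tested. Members with an unadjusted p under 0.05 numbered 0, and 2 in voom, 3 with the *Xist* covariate and 0 to 1 on leaving out a library (*Nid1* without mutant replicate 2, limma unadjusted p 0.0241). Replicate numbers did not pair the libraries (r = -0.0051 across 15997 genes, which are not independent), and the block moved no member past the threshold. *Nid2* has no value at a mean FPKM of at least 1. With 2 libraries a group, no group could be examined for an outlying library, and small differences were not detectable.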
